A study of Homo sapiens with 24 samples.

Results

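The HOX genes of the 4 human clusters were followed through 24 two-colour expression arrays of 7 cancer cell lines. Members were all genes whose array name is HOXA, HOXB, HOXC or HOXD with a number, less 1 gene that is not reported here. This gave 38 genes, 11 of the HOXA, 9 of the HOXB, 9 of the HOXC and 9 of the HOXD cluster, out of 22548 gene symbols on one array design and 24370 on the other. Each gene was read from its brightest probe, which was the same probe on both designs for all 38.

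HOX genes encode homeodomain transcription factors that give body segments their identity. They lie in clusters, and a gene's place along its cluster, counted as its paralog group, follows where along the head-to-tail axis it is active in the embryo. Adult epithelia keep part of this pattern, so the set of active HOX genes is a record of where a tissue came from, and Polycomb and Trithorax complexes hold the clusters silent or open.

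Each array compared control cells, labelled with Cy3, with treated cells, labelled with Cy5. The Cy3 channel therefore gave the level of the genes in untreated or control-transfected cells of each line. PC3, DU145 and LNCap are prostate cancer lines, A498 and 786O are renal cancer lines, and FaDu and SAS are squamous lines of the head and neck. Each condition was 1 array. PC3 and DU145 were treated with genistein, a soy isoflavone, against untreated cells. A498 and 786O received si-CAV2, FaDu and SAS si-LAMB3, and PC3 and DU145 si-GOLM1, each against a control siRNA. A control miRNA was the comparison for miR-145 in PC3, DU145 and LNCap, miR-143 in PC3 and DU145, miR-23b and miR-24 in PC3, miR-27b in PC3, A498 and 786O, miR-375 in FaDu and miR-29a in SAS. FaDu and SAS received wogonin, a plant flavone, against DMSO. 786O cells were exposed to the chemokine CXCL10 for 12 h and for 24 h against untreated cells. The series is an archive of single-array experiments on established lines, and nothing in the labels says that controls of 1 line came from separate cultures. The p-values of the line comparisons below thus measure the spread between control channels only. Those over treatments measure the spread of treated over control ratios between the lines given a treatment, pooled over treatments. No dyes were swapped, and dye and treatment cannot be told apart within an array.

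The genistein, si-CAV2, miR-145, miR-375, si-LAMB3, wogonin, miR-23b, miR-24, miR-29a and PC3 miR-27b arrays were of 1 design, called the 16-array design here, and the other 8 arrays of a second, called the 8-array design. Between 53.2% and 67.6% of spots were well above background in Cy3, by the scanner software's flag, and no spot was saturated. The 20 arrays that had another control of the same line on their design correlated best with that line in both channels. LNCap had 8 of 8 luminal prostate markers well above background, against 3 in PC3 and 5 in DU145. The renal lines had 7 (A498) and 6 (786O) of 8 tubule markers, against 4 in SAS and 3 in each other line, but also 4 luminal prostate markers each. FaDu had 8 and SAS 5 of 8 squamous markers, DU145 had 4, LNCap 3 and PC3 2, and the renal lines had none of these 8. These marker counts are of the 16-array design. The control channels of the PC3 miR-23b, miR-24 and miR-27b arrays differed from each other by an SD of 0.21 to 0.22 on the log2 scale over probes, against 0.38 to 1.06 for the 19 other pairs of 1 line and design, and were counted as 1 sample in means ± SD. The limma fits below took these alike controls as separate channels unless stated, so their SEs and p-values treat them as independent. The 786O miR-27b control (SD of 0.96 and 1.06 from the other 786O controls) and the FaDu miR-375 control (0.69 to 0.77, against 0.45 for the other FaDu pair) stood apart from their lines, and results that rest on them are given with and without them below. Other controls differed by similar amounts. The DU145 pair of the 16-array design differed by 0.78, PC3 miR-145 from the other PC3 controls by 0.66 to 0.7, and SAS miR-29a from SAS wogonin by 0.68.

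The sequences shown are those the results turn on: promoters of HOXD10 and HOXD8, the array probes of HOXC12 and HOXD12, and the miRNAs of the arrays where HOX genes differed most. The promoter windows, from RefSeq on GRCh38.p14, run from 250 bases before to 50 after the gene's start. HOXD10 lies at chr2:176116528-176116827 and HOXD8 at chr2:176129455-176129754, both on the plus strand, and CG dinucleotides are in capitals.
HOXD10: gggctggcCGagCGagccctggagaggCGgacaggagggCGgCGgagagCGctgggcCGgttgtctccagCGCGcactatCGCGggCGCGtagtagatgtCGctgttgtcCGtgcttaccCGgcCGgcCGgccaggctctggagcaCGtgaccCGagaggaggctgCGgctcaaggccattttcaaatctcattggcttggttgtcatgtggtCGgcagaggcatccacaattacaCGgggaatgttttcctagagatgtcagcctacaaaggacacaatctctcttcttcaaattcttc
HOXD8: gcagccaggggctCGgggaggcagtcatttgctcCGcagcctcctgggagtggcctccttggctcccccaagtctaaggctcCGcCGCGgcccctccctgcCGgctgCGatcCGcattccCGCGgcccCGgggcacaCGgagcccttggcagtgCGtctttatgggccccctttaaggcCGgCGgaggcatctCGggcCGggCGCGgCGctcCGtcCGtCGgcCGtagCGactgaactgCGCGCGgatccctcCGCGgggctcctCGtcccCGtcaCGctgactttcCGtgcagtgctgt
The window of HOXD10 held 23 CG dinucleotides, a number reached by 35.8% of the 35116 promoter windows of the table, and that of HOXD8 held 34, reached by 15.6%. The median of all windows was 14. Of the 38 HOX genes, 20 had an entry, 18 of them with a single window, and 14 of these 18 were above that median, within a range of 4 to 44. CG-rich windows are thus common among HOX genes, and their methylation was not measured here.

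HOXC12 and HOXD12 belong to the same paralog group, and their probes, each 60 bases long, were compared because HOXC12 was found in a single line on the 16-array design and HOXD12 in none. The HOXC12 probe lies at chr12:54350226-54350285 and the HOXD12 probe at chr2:176965341-176965400 on hg19, the build of the array annotation, both on the plus strand, and capitals mark their longest shared run.
HOXC12 probe: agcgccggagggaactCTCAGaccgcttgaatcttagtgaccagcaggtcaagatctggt
HOXD12 probe: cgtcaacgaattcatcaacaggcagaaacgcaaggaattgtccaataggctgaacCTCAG
The shared run was 5 bases. The longest run that the HOXC12 probe shared with any other HOX probe was 9 bases, and the longest over all 703 pairs of HOX probes was 13.

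For the miRNAs, the RefSeq mature forms are printed with the seed, bases 2 to 8, in capitals. The labels give no arm, so the arm named here is an assumption.
miR-145-5p: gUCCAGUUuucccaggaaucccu
miR-24-3p: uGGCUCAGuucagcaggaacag
miR-375-3p: uUUGUUCGuucggcucgcguga
The 3 seeds differ from each other.

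Detection differed widely between lines. A gene was counted as detected in a line when it was well above background on every control channel of that line. On the 16-array design A498 had 31 of the 38 HOX genes detected, 786O 29, DU145 27, FaDu 26, SAS 23, PC3 19 and LNCap 15, while 57.8% to 67.6% of all gene symbols were detected in these lines. LNCap thus had the fewest HOX genes although 65.4% of all symbols were detected there. A line with more control arrays had to pass on more of them, 5 for PC3 and 1 each for LNCap, A498 and 786O, so PC3's count is the stricter one. On the 8-array design 23 genes were detected in PC3, 25 in DU145, 30 in A498 and 29 in 786O.

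**Figure D1:**
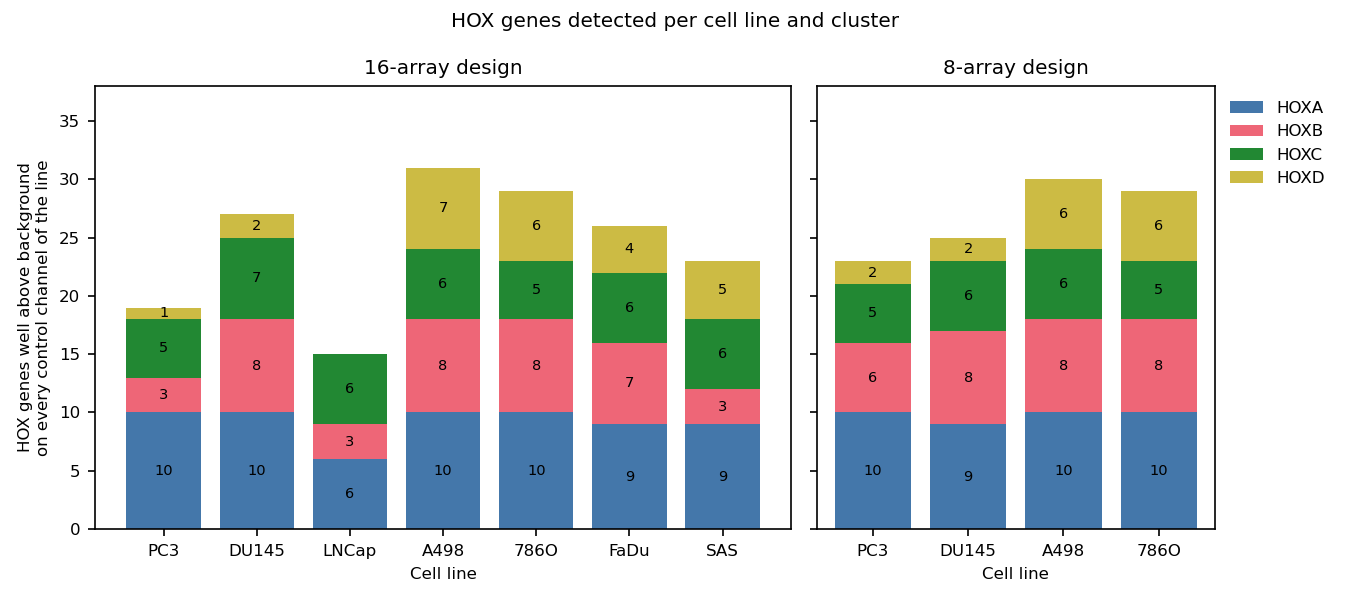
Number of HOX genes well above background on every control channel of a line (y axis), stacked by cluster, for each cell line (x axis) on both array designs. A498 reaches 31 of 38 genes and LNCap 15 on the 16-array design, where no HOXD gene was detected in LNCap.

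The clusters behaved differently. HOXA was detected in 9 or 10 of its 11 genes in every line except LNCap, which had 6. HOXB fell into lines with 7 or 8 of 9 genes, namely DU145, A498, 786O and FaDu, and lines with 3, namely PC3, LNCap and SAS. For PC3, 3 more HOXB genes were above background on some of its 5 control channels, and on the 8-array design PC3 had 6 of 9. HOXC varied least, from 5 to 7 of 9. HOXD varied most, with 7 of 9 genes in A498, 6 in 786O, 5 in SAS and 4 in FaDu, but 2 in DU145, 1 in PC3 and 0 in LNCap. By position along the clusters, SAS had 12 of the 15 posterior genes (paralog groups 9 to 13) but 3 of the 8 anterior ones (groups 1 to 3), and LNCap had 6 and 1.

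Of 266 pairs of a gene and a line, 170 were detected. HOXA3, HOXA5, HOXA6, HOXA9, HOXA10, HOXB6, HOXB9, HOXC4, HOXC6 and HOXC9 were detected in all 7 lines. HOXB1, a hindbrain patterning gene, HOXC11, HOXD4 and HOXD12 stayed at background in Cy3 on all 24 arrays. HOXC12 was detected in LNCap alone and HOXC5 in DU145 and LNCap alone, both on the 16-array design.

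**Figure D2:**
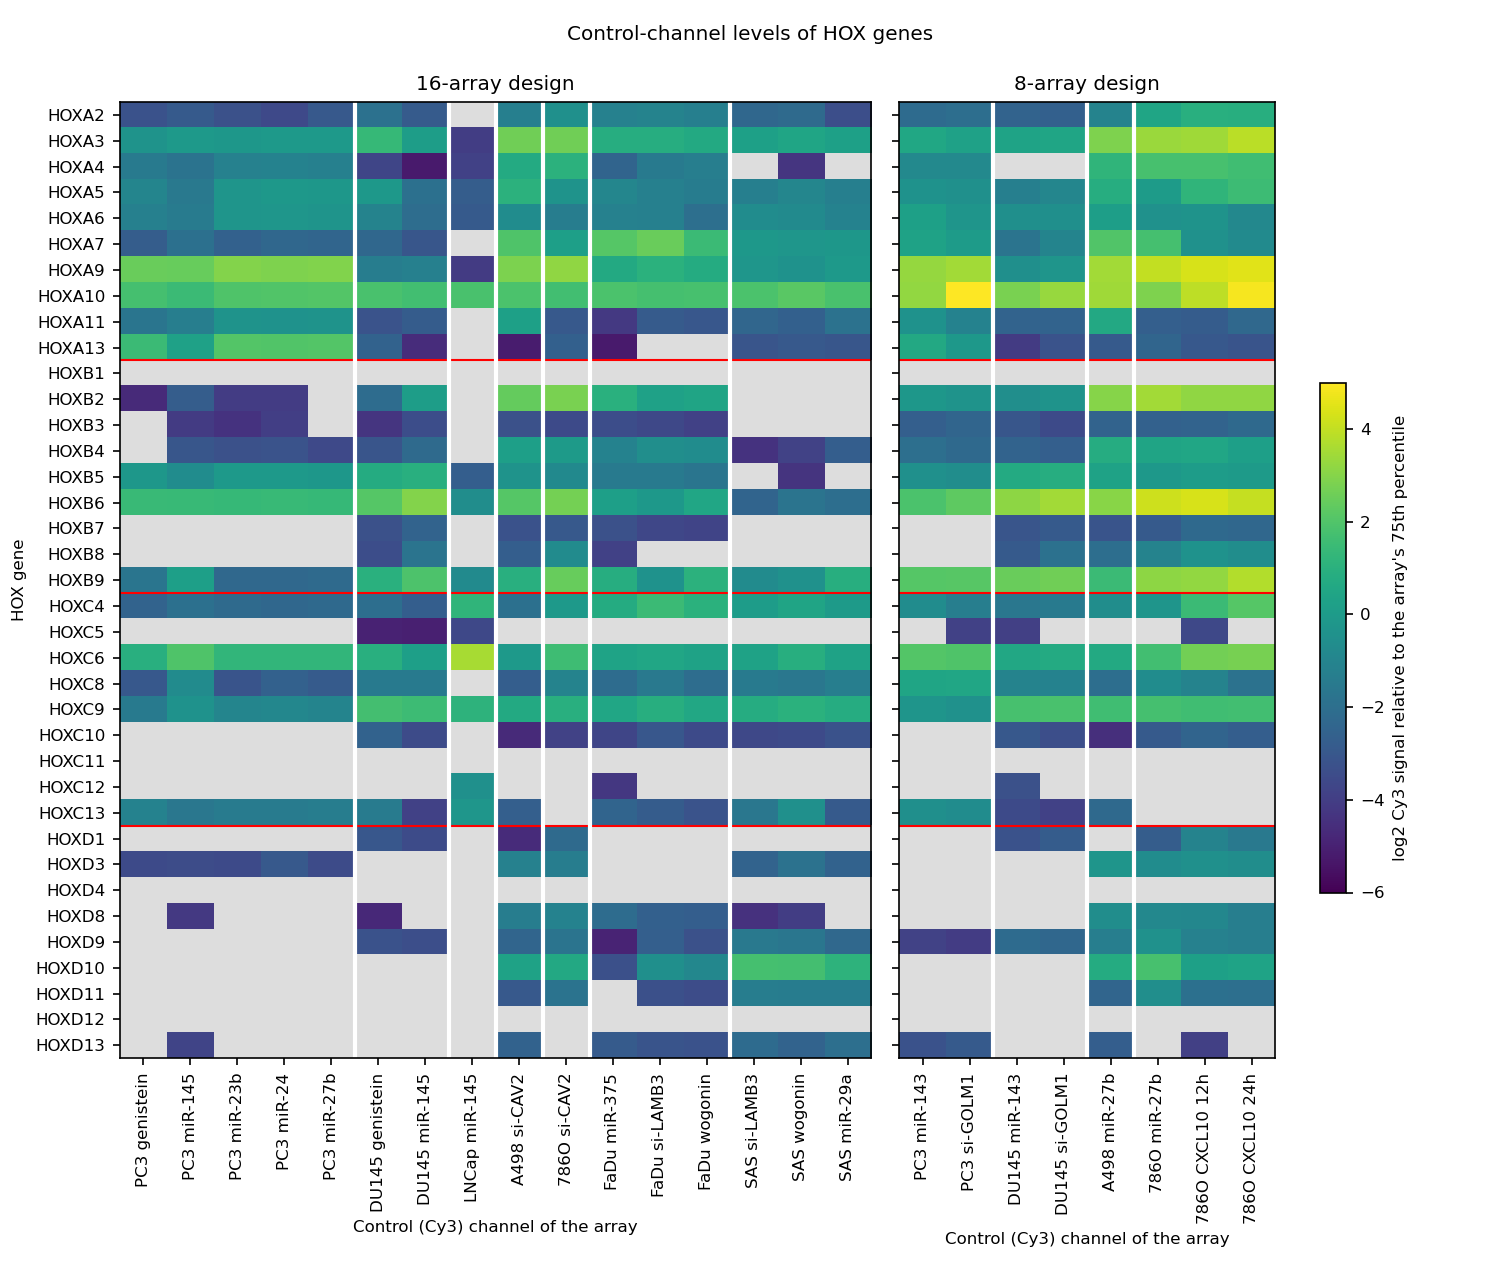
Level of the HOX genes reported here (rows, red lines between clusters) in the control channel of each array (columns), as colour, on the log2 scale relative to the array's 75th percentile. Grey cells are not well above background. The HOXD rows are mostly grey in PC3, DU145 and LNCap and coloured in the renal and squamous lines.

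The levels below are log2 Cy3 signals minus the array's 75th percentile, so 0 is that percentile, and they compare 1 gene between lines of 1 design, not genes with each other. A gene was called between lines at an adjusted p under 0.05 in limma and a log2 difference of at least 1. Where a gene was not well above background on any array of the dimmer side, its fold is given as a lower bound, from the lowest signal that counted as above background there.

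Renal lines were compared with PC3 and DU145 to ask which HOX genes separate kidney from prostate cancer cells. The renal lines had more of the HOXD cluster and of several HOXA and HOXB genes, while HOXA13 and HOXC13, the last genes of their clusters, were lower on average but not in each renal line against each prostate line. Of 32 HOX genes tested, 18 were called, 16 higher and 2 lower in the renal lines, where 23% of all genes tested were called, 9.7% higher and 13.3% lower. The median difference was 1.57 over the HOX genes and -0.07 over all genes. By cluster, 6 of 7 tested HOXD genes, 5 of 10 HOXA, 4 of 8 HOXB and 1 of 7 HOXC genes were higher.

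HOXD10, which acts in limb and spinal cord patterning, set the lines apart most. Its level was 0.33 in A498 and 0.65 in 786O, and -6.99 to -6.56 in the 5 PC3 and -7.51 and -7.05 in the 2 DU145 control channels. It was well above background in both renal lines and in none of these 7 prostate channels, so the groups did not overlap. HOXD10 was at least 48.1-fold higher in the renal lines (adjusted p = 5.54e-07), with measured means of 0.49 and -7.01. On the 8-array design its level was 0.78 in A498 and 0.26, 0.39 and 1.78 in 786O against -6.41 to -5.39 in the prostate lines, and the bound was 37.6-fold. LNCap, not part of this comparison, had -6.47, also not well above background.

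The neighbours of HOXD10 in the cluster differed in the same direction. HOXD11 had levels of -2.92 in A498 and -1.83 in 786O and was at background in all 7 prostate channels, a difference of at least 6.6-fold (adjusted p = 2.22e-04). HOXD8 was -1.33 and -1.13 in the renal lines against -6.67 to -4.17 in PC3 and -6.29 and -4.75 in DU145, a log2 difference of 4.13 (SE 0.57), with 2 of the 7 prostate channels above background. HOXD3 differed by 4.02 (SE 0.32), and its level in PC3, -3.53 to -2.92, was above background on all 5 arrays while DU145 was at background on both. HOXD9 differed by 2.50 (SE 0.47), with levels of -2.40 and -1.75 in the renal lines and -3.35 and -3.21 in DU145. HOXD1 differed by 1.54 (SE 0.32), but not line by line, since A498 was at -4.63, 786O at -2.21 and DU145 at -3.02 and -3.49, with PC3 at background. With normexp background correction HOXD9 and HOXD1 were at 0.73 and 0.20 and not called. For HOXD3 and HOXD9 a second, dimmer probe was at background on nearly all controls of this design, so those values rest on 1 probe. On the 8-array design HOXD3 was at background in PC3 as well as in DU145.

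HOXB2, which patterns the hindbrain and its nerves, was 2.42 in A498 and 2.79 in 786O. In PC3 it ranged from -4.81 to -2.74, and in DU145 it was -2.09 and 0.13. Every renal value lay above every prostate value, and the difference was 5.13 (SE 0.71, adjusted p = 1.44e-04). HOXB4, a regulator of blood stem cells, was higher by 3.17 (SE 0.45). HOXB8 and HOXB7 had fitted differences of 3.03 (SE 0.73) and 1.67 (SE 0.39) that came from PC3, where both were at background. HOXB8 was at -2.71 and -0.70 in the renal lines against -3.40 and -1.78 in DU145, and HOXB7 at -3.24 and -2.91 against -3.28 and -2.51, so the renal and DU145 values overlapped. With normexp correction the differences were 0.96 and 0.10 and neither was called.

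In HOXA, HOXA4 was higher in the renal lines by 3.81 (SE 0.42), HOXA7 by 3.64 (SE 0.28), HOXA3 by 2.32 (SE 0.25), HOXA9 by 2.29 (SE 0.18) and HOXA2 by 1.92 (SE 0.34). HOXA9, known for its part in blood stem cells and leukaemia, did not separate the tissues line by line. Its level was 2.84 and 3.19 in the renal lines and 2.45 to 2.95 in PC3, and the difference came from DU145 at -1.35 and -1.23. On a second HOXA9 probe the means lay closer, at 0.46 in A498, 0.59 in 786O, 0.42 in PC3 and -0.64 in DU145. The difference of HOXA7 was smaller on the 8-array design, 1.71, and not called there. HOXA13, a gene of the hindgut, the urogenital tract and the limb tips, was the one HOXA gene called lower, with a difference of -2.90 (SE 0.54, adjusted p = 0.001). That difference came from PC3, at 0.30 to 2.05, since A498 at -5.16 and 786O at -2.63 lay close to the DU145 values of -2.55 and -4.60.

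In HOXC, HOXC4 was higher in the renal lines by 1.31 (SE 0.25), with A498 at -1.95 inside the prostate range of -2.73 to -1.93, and was not called with normexp correction (0.87). HOXC13, a gene of hair and nails, was lower at -2.89 (SE 0.60). For HOXC13 the renal lines did not act as 1 group, since A498 was at -2.69 and 786O at background at -7.13.

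The renal comparison was repeated on the 8-array design, with other control channels of the same 4 lines and a separate slide. There 18 of 31 HOX genes were called, 15 higher and 3 lower (21.9% of all genes, 10.9% higher and 11.1% lower), and 15 genes were called on both designs, all in the same direction. HOXA7, HOXC4 and HOXD1 were called on the 16-array design alone. HOXA5, HOXC10 and HOXC8 were called on the 8-array design alone, and HOXC8 changed sign between designs. Without the 786O miR-27b control, a fit chosen after seeing the data, 21 were called there, 18 higher and 3 lower, and HOXD10 differed by 6.61. On the 16-array design all renal controls lie on 1 of its 2 slides. Within that slide the differences of HOXD10, HOXD11, HOXD3 and HOXD8 were 7.59, 5.11, 4.08 and 4.24, and HOXA13, HOXC13 and HOXC4 were not called.

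**Figure D3:**
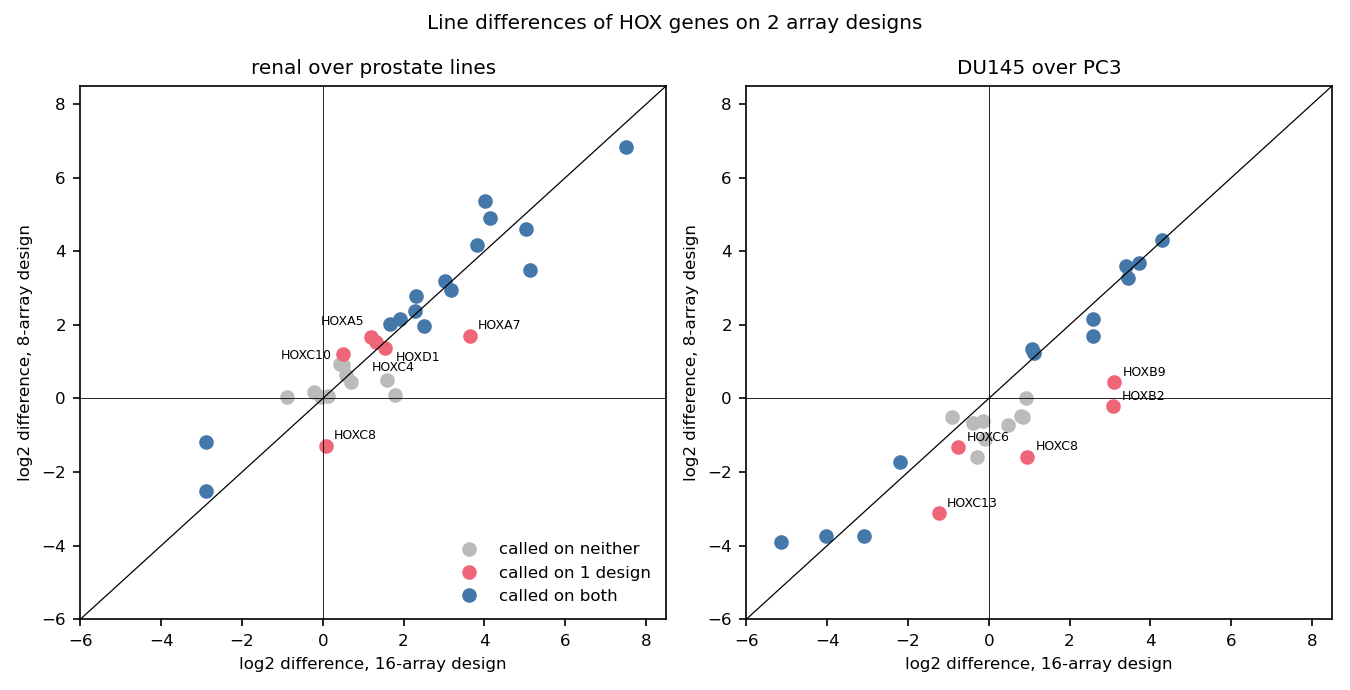
Log2 differences of HOX genes between lines on the 16-array design (x axis) and the 8-array design (y axis), for renal over prostate lines (left) and DU145 over PC3 (right). The diagonal marks equal values, and genes called on 1 design are named. In the right panel HOXB2 moves from 3.08 to -0.21.

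The squamous lines were compared with PC3 and DU145 on the 16-array design. HOXD10 and other HOXD genes were higher in the squamous lines, and HOXB5 and HOXB6 were lower. Of 32 HOX genes tested, 12 were called, 8 higher and 4 lower. The PC3 and DU145 channels are those that served the renal comparison too. Among all genes tested 25.9% were called. The median difference was 0.17 over the HOX genes and -0.02 over all genes, and 5 of the 8 higher genes were in HOXD.

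HOXD10 was at 1.75, 1.70 and 1.10 in SAS and at -0.54, -0.90 and -3.33 in FaDu. All 6 squamous channels were above background and above all 7 prostate channels. The difference was at least 33.4-fold (adjusted p = 2.36e-08). The lowest value was that of the FaDu miR-375 control, and without it the log2 difference was 7.41 in place of 6.98, with 14 HOX genes called in place of 12. That control was the one squamous control on its slide, within which HOXD10 in FaDu differed from PC3 and DU145 by 3.77. Within the other slide, which held no DU145, FaDu and SAS differed from PC3 by 7.03. HOXD11 was at least 4.3-fold higher, with SAS at -1.38 to -1.32, 2 FaDu channels at -3.45 and -3.33 and the FaDu miR-375 control at background.

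HOXD13, the last HOXD gene, was higher by 4.06 (SE 0.41), HOXD8 by 1.87 (SE 0.41) and HOXD9 by 1.84 (SE 0.34). With normexp correction these were 0.97, 0.64 and 0.64 and none of the 3 was called. Within the slide of the FaDu miR-375 control the difference of HOXD9 was -0.34, and within the other slide 3.50. Its mean was -3.62 in FaDu, below DU145 at -3.28, while SAS was at -1.85 and PC3 at background. HOXD1 had a fitted difference of -1.47 (SE 0.23), at background on all 6 squamous channels and above it in DU145 alone. HOXA7 was higher by 3.48 (SE 0.20, adjusted p = 3.09e-08), HOXC4 by 2.95 (SE 0.18) and HOXC10 by 1.30 (SE 0.29). The normexp values of HOXD1 and HOXC10 were -0.10 and 0.32, not called. HOXB5, a gene of foregut and lung patterning, was lower with a difference of -3.41 (SE 0.16), as were HOXB6 at -2.90 (SE 0.17) and HOXA13 at -3.46 (SE 0.39). The HOXA13 difference came mainly from PC3. The mean of FaDu, but not that of SAS, lay below that of DU145. The slide of the FaDu miR-375 control held no SAS, and the other held no DU145, so the fits within them compared different lines. On the other slide PC3 was present only as the alike miR-23b, miR-24 and miR-27b controls, and 22 HOX genes were called there.

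DU145 and PC3, both prostate lines, differed by cluster. Every called HOXB gene was higher in DU145 and every called HOXA gene was higher in PC3. Of 28 HOX genes tested, 16 were called, 11 higher and 5 lower in DU145, where 28.7% of all genes were called, 15.6% higher and 13.1% lower. With the 3 alike PC3 controls counted as 1, 15 were called, without HOXC5, and within the slide that held both lines 10 were. The median difference was 0.83 over the HOX genes and 0.08 over all genes, and -0.50 and 0.02 on the 8-array design.

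HOXA13 was at 1.5, 0.30, 2.05, 2.01 and 2.04 in PC3 and at -2.55 and -4.60 in DU145. All PC3 values lay above both DU145 values. The means were 1.28 ± 0.89 (SD, n = 3 distinct controls) and -3.57 ± 1.45 (SD, n = 2), and HOXA13 was lower in DU145 with a log2 difference of -5.15 (SE 0.55, adjusted p = 1.19e-05 in limma). That fit took the alike PC3 controls as separate channels, and with them counted as 1 the difference was -4.85. HOXA9 was lower at -4.03 (SE 0.19, adjusted p = 7.22e-09), HOXA4 at -3.08 (SE 0.43) and HOXA11, a partner of HOXD11 in kidney and limb growth, at -2.19 (SE 0.44). HOXA9 has a second probe, on which the means were 0.42 in PC3 and -0.64 in DU145, the same direction with a smaller gap.

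On the other side, HOXB8 was at -3.40 and -1.78 in DU145 and at background in PC3, a difference of at least 4.04-fold, and HOXB7 was at least 3.27-fold higher. HOXC10 (at least 3.02-fold), HOXD1 (at least 2.55-fold) and HOXD9 (at least 2.51-fold) were likewise at background in PC3, and HOXC9 was higher by 2.59 (SE 0.24). HOXC5 was fitted at 1.20 (SE 0.37). Its floor gave no bound over 1. With normexp correction HOXB5, HOXB7, HOXB8, HOXC5, HOXC10, HOXD1, HOXD3 and HOXD9 were not called, with values of -0.72 (HOXD3) to 0.95 (HOXB8). HOXD3 ran the other way, above background on all 5 PC3 channels and at least 4.62-fold lower in DU145, but it was at background in both lines on the 8-array design and not tested there.

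HOXB9, HOXB2, HOXB5 and HOXB6 were called with differences of 3.1, 3.08, 1.08 and 1.13. The levels of HOXB9 in PC3 ranged from -2.29 to 0.21 and of HOXB2 in DU145 from -2.09 to 0.13, so replicate spread within a line was large. HOXB2 and HOXB9 were not called on the 8-array design, where their values were -0.21 (SE 0.20) and 0.44 (SE 0.24). A second, dimmer HOXB2 probe did not follow the first there, with means of -0.76 in DU145 and -3.75 in PC3. Without the DU145 miR-145 control HOXB2, HOXB5 and HOXB6 were not called, nor was HOXB5 without the PC3 miR-145 control. On the 8-array design 15 of 27 HOX genes were called, 8 higher and 7 lower (19.6% of all genes, 9.49% higher and 10.2% lower), 12 of them on both designs in the same direction. HOXC6, HOXC8 and HOXC13 were called there alone, all lower in DU145.

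**Figure D4:**
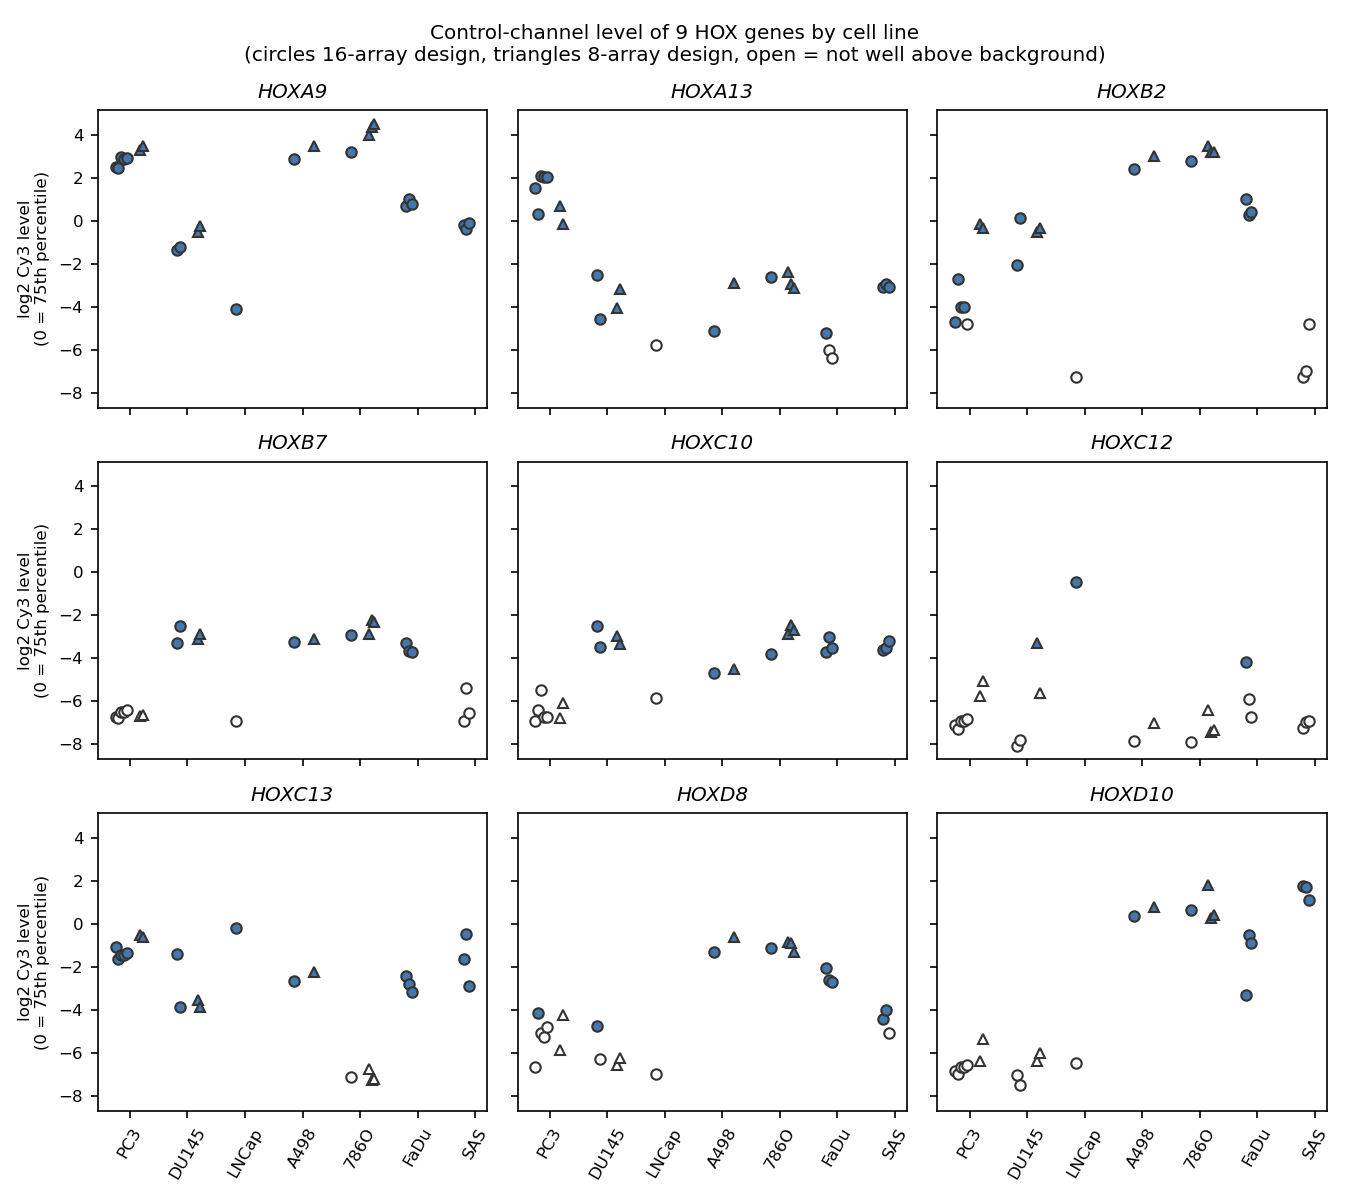
Control-channel level of 9 HOX genes (y axis, log2 relative to the array's 75th percentile) in each cell line (x axis). Each point is 1 array, circles from the 16-array and triangles from the 8-array design, filled where well above background and open where not. HOXD10 is open in every prostate channel and filled in every renal and squamous one, and HOXA13 is highest in PC3.

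LNCap, the line with all luminal markers detected, was set against PC3 and DU145 from a single control channel, whose spread was assumed to be that of the other lines. Most HOX genes were lower in LNCap, and those that were higher all lay in HOXC. Of 29 tested, 21 were called, 4 higher and 17 lower, where 28.7% of all genes were called, 15.5% higher and 13.2% lower. The median difference was -2.10 over the HOX genes and 0.15 over all genes.

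HOXC12 was at -0.47 in LNCap in the control and at -1.23 in the miR-145 transfected channel of the same array. In the 5 PC3 and 2 DU145 control channels it was at -8.07 to -6.84, at background on each, so LNCap was at least 24.7-fold higher (adjusted p = 4.77e-06). Outside LNCap, HOXC12 was above background in 2 control channels, the FaDu miR-375 one at -4.20 and the DU145 miR-143 one of the 8-array design at -3.28. HOXC4 was higher in LNCap by 3.50 (SE 0.33), HOXC6 by 2.59 (SE 0.35) and HOXC5 by 1.96 (SE 0.48). HOXC6 is known for raised expression in prostate tumours. HOXC8, in the same cluster, was at least 8.02-fold lower.

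HOXA3 was lower in LNCap with a difference of -4.30 (SE 0.33) and HOXA9 with -4.83 (SE 0.24, adjusted p = 1.43e-08). The second HOXA9 probe was at -1.02 in LNCap against 0.42 in PC3 and -0.64 in DU145. HOXA13 was at least 15.8-fold, HOXA11 at least 8.4-fold, HOXA7 at least 4.94-fold and HOXA2 at least 4.61-fold lower. These bounds are against the mean of PC3 and DU145. That of HOXA13 came mostly from PC3, since the DU145 levels given above lay closer to the LNCap floor of -4.98. In HOXB, HOXB2 was at least 5.5-fold lower, and HOXB5 and HOXB6 were lower with differences of -3.02 (SE 0.29) and -2.58 (SE 0.32). The HOXB2 bound came mostly from DU145, with a mean of -0.98 against -4.06 in PC3. With normexp correction HOXA2, HOXA5, HOXA6, HOXA7, HOXB3, HOXB4, HOXB7, HOXC5, HOXD1 and HOXD3 lost their calls, the values lying between -1.18 (HOXA5) and 0.36 (HOXC5).

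FaDu and SAS, both squamous, differed by cluster. HOXB genes and HOXA4 were higher in FaDu, and HOXD3 and HOXD9 to HOXD11 were higher in SAS. Of 29 tested, 16 were called, 11 higher and 5 lower in FaDu (23.6% of all genes, 12% higher and 11.6% lower), and the median difference was 0.02 over the HOX genes and 0.01 over all genes. All 6 called HOXB genes were higher in FaDu and none of the 6 tested HOXC genes was called.

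HOXB2 was at 0.99, 0.28 and 0.41 in FaDu, a mean of 0.56 ± 0.37 (SD, n = 3), and at -7.29, -7.01 and -4.83, all at background, in SAS. FaDu was at least 37.5-fold higher (adjusted p = 9.91e-06). Its second probe was above background on 3 of 3 FaDu and 0 of 3 SAS channels. HOXA4 was higher by 3.19 (SE 0.42), HOXB5 by 3.06 (SE 0.22), HOXB4 by 2.88 (SE 0.45) and HOXB6 by 2.28 (SE 0.24). HOXB7 and HOXB3, at background in SAS, were at least 2.15-fold and 2.07-fold higher. HOXA7 was higher by 2.19 (SE 0.28). HOXA9 was called higher on its brightest probe, while its second probe was at -0.59 in FaDu and -0.54 in SAS.

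HOXD3 was at -2.49, -1.85 and -2.52 in SAS and at background in FaDu, at least 5.74-fold lower (adjusted p = 3.12e-07). HOXD10 and HOXD11 were lower in FaDu with differences of -3.1 (SE 0.55) and -3.27 (SE 0.73). Without the FaDu miR-375 control the differences were -2.23 and -2.04, still called, and that of HOXD9 was -1.13 in place of -1.77. HOXA13 was lower at -2.84 (SE 0.54). Without that control 16 HOX genes were again called, but HOXD8 was not. With normexp correction HOXA2, HOXA4, HOXA9, HOXA13, HOXB3, HOXB7, HOXD3, HOXD8 and HOXD9 lost their calls, with values of -0.96 (HOXD3) to 0.97 (HOXA4).

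A498 and 786O were compared on the 8-array design, with 1 A498 and 3 786O control channels. Of 31 tested, 8 were called, 2 higher and 6 lower in A498, where 12.9% of all genes were called, 6.82% higher and 6.08% lower. HOXC13 was at -2.24 in A498 and at background in all 3 786O channels, at least 6.13-fold higher, and HOXA11 was higher by 3.22 (SE 0.38). HOXD1 was at least 7.04-fold lower in A498. HOXA2, HOXB9, HOXC10, HOXC6 and HOXB6 were lower, with differences of -1.86 (SE 0.29), -1.85 (SE 0.28), -1.84 (SE 0.45), -1.69 (SE 0.41) and -1.13 (SE 0.25). HOXA11, HOXC6, HOXC13 and HOXD1 were also among the 7 genes called on the 16-array design, 4 higher and 3 lower (10.3% of all genes, 6.37% higher and 3.95% lower). With normexp correction HOXC10 (-0.28) and HOXD1 (-0.81) were not called. Without the 786O miR-27b control 11 genes were called, and without the CXCL10 control of 12 h or of 24 h 5.

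HOXA10, a uterine and posterior patterning gene, showed no called difference in any of these comparisons. Its brightest probe was at 1.5 to 2.19 in all 16 control channels of the 16-array design. A second probe of the gene ranged in line means from -1.79 in LNCap to 0.53 in A498. The probes disagree, and the flat level is a property of 1 probe. On the 8-array design that brightest probe ranged from 2.80 to 5.08, with 2.87, 3.91 and 4.85 within 786O.

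Genes known to work with or on the HOX clusters were looked at in the same fits. Counts over the lists below are to be read against the shares of all genes called, which were 23% in the renal, 25.9% in the squamous, 28.7% in the DU145, 28.7% in the LNCap, 23.6% in the FaDu and 12.9% in the A498 comparison. Of 9 HOX cofactors on the array, which bind DNA beside HOX proteins, 8 were tested in the renal comparison, where PBX3 was higher by 1.20 and PBX2 was lower. In LNCap, MEIS2, a homeodomain cofactor, was lower at -5.20 (SE 0.36), MEIS1 at -1.77 and PBX3 at -1.26, with PKNOX2 higher. MEIS1 and MEIS2 were at background in LNCap, so their fitted differences are not measured folds. Between A498 and 786O, 2 of 8 tested cofactors were higher, MEIS3 among them, and PBX3 was lower. FaDu had 3 of 7 tested cofactors higher than SAS, MEIS2 and PBX4 among them, and none lower. In the squamous comparison 3 of 7 were lower, PBX3 and PBX4 among them. Between DU145 and PC3, PBX3 was higher and 2 of 7 were lower, MEIS1 among them.

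Of 27 Polycomb and Trithorax genes, 3 were called between renal and prostate lines. BMI1, a Polycomb core subunit, was lower in the renal lines, at -2.34 (SE 0.30), and in the squamous lines, at -2.55 (SE 0.21), and CBX2, which reads the Polycomb mark, was higher by 1.76 and 1.08. KDM6A, a demethylase that removes that mark, was higher in LNCap by 3.56 (SE 0.29), where 4 genes of the list were higher and 2 lower. Between DU145 and PC3, 3 were higher and 4 lower, and between FaDu and SAS 4 were higher and 3 lower. In A498 against 786O, 1 was higher and 2 lower of 26 tested. Median differences over the list lay between -0.22 and 0.32 in all 6 comparisons.

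Among 20 genes of retinoic acid handling and CDX factors, which set HOX boundaries in the embryo, STRA6, a retinol uptake receptor, was higher in renal lines by 5.28 (SE 0.78). CYP26A1, which breaks retinoic acid down, was higher in FaDu than in SAS by 6.92 (SE 0.78). CYP26A1 was at background in SAS, so that value is a fitted difference and not a measured fold. Of 16 genes tested 4 were higher and 4 lower in the renal lines, of 14 tested 6 were higher and 0 lower in the squamous lines, and of 13 tested 1 was higher and 3 lower in LNCap. DU145 had 3 higher and 2 lower of 13, FaDu 3 higher and 3 lower of 12, and A498 2 higher and 0 lower of 14. HOTAIR, the non-coding RNA of the HOXC cluster, was not well above background on every control channel of any line on the 16-array design. The 8-array design, which also has probes for HOTAIRM1 and HOTTIP, detected all 3 in PC3, DU145 and A498, and called none between A498 and 786O.

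Treated cells were compared with their controls by the log2 ratio of Cy5 over Cy3 of each array, with the error the scanner software gives for that array. A ratio of 1 either way was the limit of size, and both channels had to be well above background. Of 912 pairs of a HOX gene and an array, 609 could be read this way and 49 passed the limit, 31 up and 18 down. That was 8.05% of the HOX pairs, against 5.85% of the pairs of all genes. The shares of all genes passing the limit, here and below, count both directions together. No share by direction stands beside the counts up and down. The 49 pairs fell on 24 genes and 17 arrays. HOXD ratios past the limit were 7 up and 0 down, HOXB 11 and 5, HOXC 8 and 4, and HOXA 5 and 9.

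**Figure D5:**
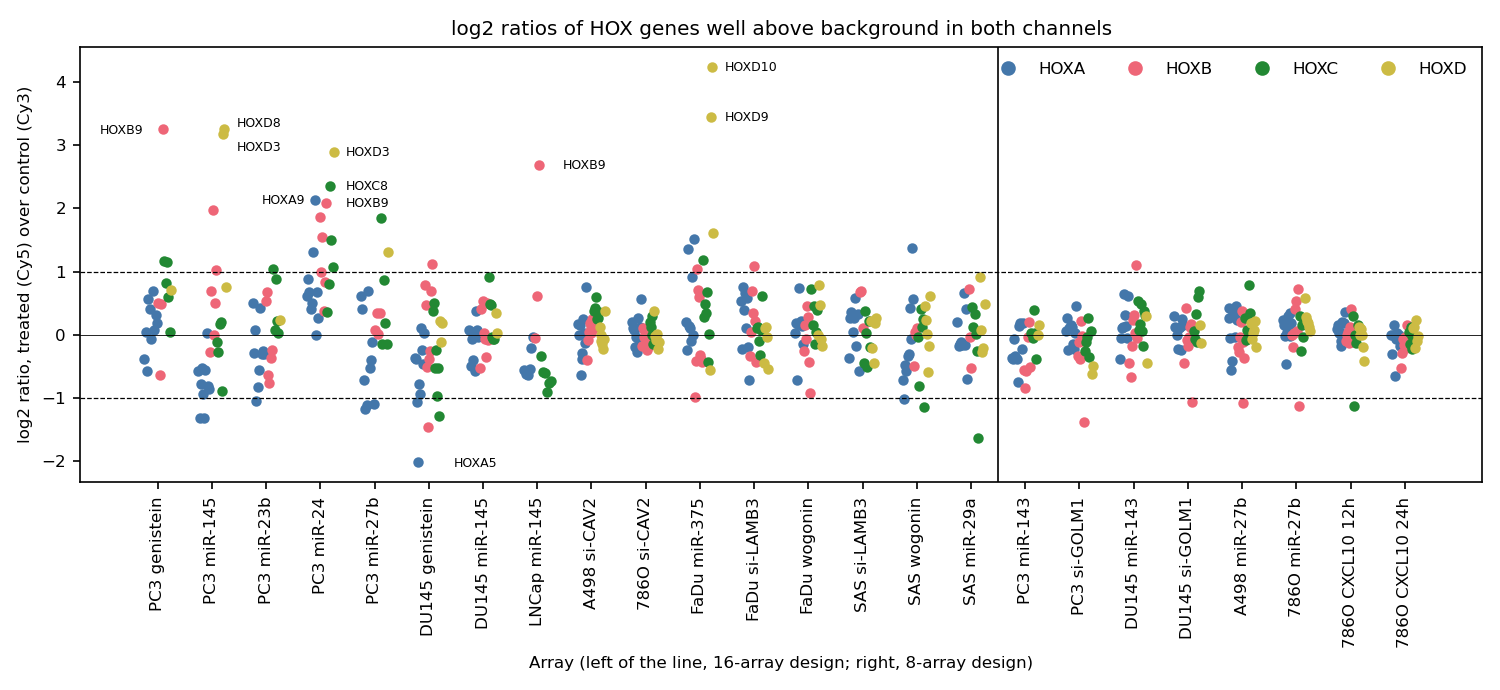
Log2 ratio of treated over control signal (y axis) for HOX genes well above background in both channels of each array (x axis), coloured by cluster. Dashed lines mark ratios of 1 and -1, and genes past 2 are named. Arrays of the 8-array design lie closer to 0, from -1.38 to 1.10.

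The arrays differed in how many genes passed overall. On the PC3 miR-24 array 9 of 22 HOX genes passed, all up, where 24.1% of all genes passed. The median HOX ratio there was 0.86. On the FaDu miR-375 array 7 of 28 passed, all up, against 20.2% of all genes. On the PC3 miR-145 array 6 of 24 passed (11.2% of all genes), on the PC3 miR-27b array 5 of 20 (9.9%), on the DU145 genistein array 5 of 28 (9.08%) and on the PC3 genistein array 3 of 20 (12.9%). On the SAS wogonin array 3 of 26 passed (9.51% of all genes) and on the PC3 miR-23b array 2 of 22 (7.81%). A single HOX gene passed on the LNCap miR-145 (5.48% of all genes), FaDu si-LAMB3 (6.19%), SAS miR-29a (5.64%), DU145 miR-143 (0.672%), DU145 si-GOLM1 (0.225%), PC3 si-GOLM1 (1.02%), 786O miR-27b (0.684%), A498 miR-27b (0.71%) and 786O CXCL10 12 h (0.392%) arrays. None passed on the A498 si-CAV2 (0.738%), 786O si-CAV2 (0.63%), DU145 miR-145 (2.98%), SAS si-LAMB3 (10.8%), FaDu wogonin (4.64%), PC3 miR-143 (0.561%) and 786O CXCL10 24 h (0.471%) arrays. With 1 array each, none of these ratios has a replicate check.

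The largest ratio was HOXD10 on the FaDu miR-375 array, 4.24 (error 0.45), followed by HOXD9 on the same array, 3.45 (error 0.39). These ratios rest on the control channel that stood apart from its line. Its HOXD10 level was -3.33, against -0.54 and -0.90 in the other FaDu controls, and the treated level was 0.91. For HOXD9 the control was at -4.89, against -2.67 and -3.29 elsewhere, and the treated level was -1.44. HOXD11, at background in that control, was at least 9.33-fold higher in the treated channel, and HOXD13 (1.61), HOXA11 (1.52), HOXA4 (1.36), HOXC4 (1.18) and HOXB4 (1.04) also passed.

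In PC3, HOXD3 passed the limit with 3 miRNAs and HOXD8 with 1. HOXD3 was at 3.17 (error 0.36) with miR-145, 2.89 (error 0.34) with miR-24 and 1.31 (error 0.28) with miR-27b. Its control levels on these arrays, -3.46, -2.92 and -3.47, were alike, and the treated levels were -0.29, -0.03 and -2.15. On the PC3 genistein and miR-23b arrays its ratios were 0.71 and 0.23. HOXD8 was at 3.26 (error 0.37) with miR-145, from -4.17 to -0.91. On 2 other PC3 arrays its control was at background, and the treated channel was at least 2.58-fold higher with genistein and at least 2.05-fold higher with miR-24.

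HOXB9, a gene of mammary gland development, was past the limit on 8 arrays, more than any other HOX gene. It was up with genistein in PC3 (3.25, error 0.37) and DU145 (1.12, error 0.23), with miR-145 in LNCap (2.69, error 0.32) and PC3 (1.03, error 0.22) and with miR-24 in PC3 (2.09, error 0.28). It was down with si-GOLM1 in PC3 (-1.38, error 0.24) and DU145 (-1.07, error 0.23) and with miR-27b in 786O (-1.13, error 0.23). The control level of HOXB9 in PC3 itself ranged from -2.29 to 0.21 on the 16-array design. The treated level with genistein, 1.54, and that with miR-145, 1.24, lay above all 5 of these controls, while that with miR-24, -0.18, lay within their range. With miR-145 in DU145 the ratio was -0.09.

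Other genes passed the limit in several treatments. HOXC4 was up on 4 arrays, with miR-27b (1.85), genistein (1.16) and miR-23b (1.04) in PC3 and with miR-375 in FaDu. HOXB4 was up on 3, with miR-145 (1.98) and miR-24 (1.55) in PC3 and with miR-375 in FaDu. HOXA5, a gene of lung and breast epithelium, was down on 3, with genistein in DU145 (-2.02, error 0.28) and with miR-27b (-1.17) and miR-23b (-1.05) in PC3, although it was 0.57 with genistein in PC3. HOXC13 was down with miR-29a (-1.64) and wogonin (-1.14) in SAS and with genistein in DU145 (-1.28), and up with miR-24 in PC3 (1.07). HOXC8 (2.35) and HOXA9 (2.13) were the other ratios past 2 with miR-24 in PC3.

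In 51 further pairs (5.59%) the treated channel alone was well above background, and in 3 (0.329%) the control channel alone. Over all genes these shares were 4.94% and 0.908%. More spots passed in Cy5, 54.2% to 68.9%, than in Cy3 on each of the 24 arrays, so dye and treatment cannot be told apart in these counts. Of the former, 7 reached a bound of at least 2-fold. Beyond those above they were HOXD10 with miR-145 in LNCap (at least 3.7-fold), HOXB4 on the same array (2.44-fold), and HOXB2 (2.67-fold) and HOXB3 (2.08-fold) with miR-27b in PC3. None of the 3 others reached that size.

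Treatments given to several lines were tested with limma over lines. HOXB5 was lower with genistein, at -0.64 in PC3 and -1.46 in DU145, a mean of -1.05 (SE 0.21, adjusted p = 0.031), 1 of 24 HOX genes where 6.85% of all genes were called. HOXB4 with miR-145 was at 1.98 in PC3, 0.53 in DU145 and 1.87 in LNCap, a mean of 1.46 (SE 0.28, adjusted p = 0.032). The LNCap control was at background, where the bound was 2.44-fold, and without that array the mean was 1.26 and not called. It was 1 of 16 HOX genes, and 4.67% of all genes were called. HOXA4 with si-LAMB3 was at 0.75 in FaDu and 1.12 in SAS, a mean of 0.94 (SE 0.20, adjusted p = 0.045), 1 of 25 with 5.18% of all genes called. The SAS control was at background, where the bound was 1.93-fold, and with normexp and loess the mean of HOXA4 was 0.37 and not called. Each of these 3 calls was lost when a single array was left out, in some cases an array of another treatment. For si-CAV2, wogonin, miR-143, si-GOLM1 and miR-27b limma called none of 29, 26, 24, 21 and 29 HOX genes (0.0272%, 1.11%, 0%, 0% and 0% of all genes), and 1, 3, 9, 4 and 6 had an unadjusted p under 0.05.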

How the data were processed

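The authors hybridised control RNA in Cy3 and treated RNA in Cy5 to two-colour Agilent arrays and deposited the Feature Extraction output (version 10.7.3.1, per the submitters' processing notes and the file headers). The deposited processed signals are intensity values, background-subtracted and dye-normalized by the authors' scanner software, and the deposited log10 ratio of red over green was converted to log2. Genistein controls are untreated per the labels and vehicle-treated per the methods. Control spots and outlier-flagged spots were left out, and spots of 1 probe were averaged. Control levels were log2 Cy3 signals minus each array's 75th percentile. Lines were compared within each design with limma 3.58.1 (R 4.3.3, Benjamini-Hochberg over all probes tested), and tables were made in Python 3.11.15. LNCap, A498 and 786O had 1 control on the 16-array design, and A498 1 on the 8-array design, assumed to vary like the other lines. The fit of the renal comparison on the 16-array design was tested on simulated data, made from probes well above background on all its arrays. Genes at background and the fit over treatments were not simulated. The HOX genes and the other lists were chosen with earlier results of these data known. Genes were named where called in a comparison (the 12 largest where more were), detected in all lines or in 1, past the ratio limit in 2 lines of a treatment or on 3 arrays, or among the 10 largest ratios, and some others were named after their values were seen. Alternatives were normexp background correction, other scalings and filters, the other design, the slide and leaving out each array. The number of arrays limits the precision. Some genes are not reported here.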

Additional observations from a re-analysis of the deposited data

How the results depend on the processing

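Over the alternatives, 1343 values kept their direction and side of the threshold, 113 kept the direction but lost the call, and 3 reversed. These totals do not measure robustness, since 656 of the kept values came from leaving out 1 array. Another 91 came from dropping the minimum difference, where a call cannot be lost. Under normexp background correction of the line comparisons 52 values were kept, 38 lost the call and 1 reversed. Normexp background correction lowered the number of HOX genes called to 7 between squamous and prostate lines, 8 between DU145 and PC3, 7 between FaDu and SAS and 11 for LNCap, and took HOXC5 between DU145 and PC3 to -0.004. Without a minimum difference 19 HOX genes were called between squamous and prostate lines. Chosen after seeing the data, the fits within a slide called 6 (slide 1) and 22 (slide 2) in that comparison and 10 between DU145 and PC3 (slide 1), and HOXD9 between squamous and prostate lines was -0.339 within slide 1. HOXB2 between DU145 and PC3 was -0.212 on the other design. Log2 ratios past 1 numbered 22 with normexp and loess, 77 where 1 channel above background was enough, and 172 at a limit of 0.5. Over treatments given to several lines, normexp with loess called 8 HOX genes. The cause of these changes was not tested. Leaving out each array in turn gave 18 to 20 calls for renal, 12 to 15 for squamous, 14 to 18 for DU145 over PC3, 15 to 16 for FaDu over SAS, 5 to 11 for A498 over 786O, 21 to 22 for LNCap and 0 to 4 over treatments. No call was made over treatments without either si-CAV2 array, or without the miR-145 array of PC3 or LNCap, and 1 without either si-LAMB3 array or the SAS wogonin array. No paired analysis was possible because each line and treatment has 1 replicate, so control channels share no replicate number. Treated and control cells are paired within each array by its log2 ratio. Levels near background limit what the HOXD, HOXB7, HOXB8 and HOXC5 values can show.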
